A study of Mus musculus with 2 samples.

Results

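Of 21035 cells kept from the dabrafenib (DAB) and DMSO libraries, 597 were stefin A-high myeloid cells, 41 of 9621 in the DMSO library and 556 of 11414 in the DAB library. A kept cell had at least 1000 unique molecular identifiers (UMIs) and at most 10% mitochondrial UMIs. A member had at least 20 UMIs of Stfa1, Stfa2 and Stfa3 together per 10000 of its UMIs, under 20 of Ltf and Ngp and under 30 of H2-Aa, H2-Ab1 and H2-Eb1 per 10000, and fewer than 2 UMIs of Car4 and of Mmp13. The members were thus chosen by their own measured levels of these genes, which are given as a description. Both groups were bone marrow cells of female C57BL/6 mice aged 10 weeks, depleted of red cells and turned into myeloid-derived suppressor cells (MDSC) by 50 ng/mL GM-CSF plus 50 ng/mL IL-6 over 4 days. The DAB group grew in 1.5 µmol/L dabrafenib, a RAF kinase inhibitor, and the DMSO group in the same volume of its solvent. Each group was 1 library, and how many mice it came from is not stated in the sources. No test between the groups was therefore possible, and what the drug did cannot be told apart from what differs between any 2 cultures or droplet runs. Intervals are exact, at 95%, and cover counting error only.

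Stefins are small cytosolic proteins that block cysteine cathepsins, the proteases of the lysosome. In the mouse the stefin A gene has been copied into a cluster, and its members are expressed by granulocytes and their precursors. Ly6c2 encodes a Ly6C antigen, which is used with Ly6G to divide MDSC into monocytic and granulocytic cells, while S100a8 and S100a9 encode the alarmin pair that fills the cytosol of both.

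The copies are so alike that their reads can be hard to tell apart, which bears on each level given below. In GRCm38 with the GENCODE vM21 annotation, 10 genes of the family lie within 335 kb of chromosome 16, among them Stfa1 (chr16:36276951-36285373, plus strand), Stfa2 (chr16:36403992-36408457, minus strand) and Stfa3 (chr16:36450537-36455392, minus strand). The 3 most alike pairs are shown by the first 90 bases of their coding sequences, since the 5′ chemistry reads from the start of the transcript. Capitals mark the bases at which the members of a pair differ.
Stfa1: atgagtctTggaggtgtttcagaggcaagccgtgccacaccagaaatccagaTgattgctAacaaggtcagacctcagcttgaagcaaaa
Cstdc5: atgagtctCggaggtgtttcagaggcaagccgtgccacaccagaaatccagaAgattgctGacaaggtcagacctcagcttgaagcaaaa
Stfa2: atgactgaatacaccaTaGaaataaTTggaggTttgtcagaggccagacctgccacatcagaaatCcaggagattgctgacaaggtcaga
Stfa2l1: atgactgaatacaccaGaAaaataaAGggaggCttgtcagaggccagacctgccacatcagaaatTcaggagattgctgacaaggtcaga
Cstdc4: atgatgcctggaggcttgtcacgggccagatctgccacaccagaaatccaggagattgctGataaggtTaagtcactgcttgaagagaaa
Csta2: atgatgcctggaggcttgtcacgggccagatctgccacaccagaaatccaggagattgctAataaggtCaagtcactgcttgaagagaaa
Over their whole coding sequences Stfa1 and Cstdc5 were 97.9% identical, Cstdc4 and Csta2 96.9%, and Stfa2 and Stfa2l1 96.4%. Stfa2 and Stfa3 shared 80.9% of their bases. Of all windows of 90 bases in its transcripts, Cstdc5 had 12.0% and Stfa1 6.48% that another gene also held, and Stfa3 had none. How the counting divided reads between the copies was not tested, so levels of Stfa1 against Cstdc5, Stfa2 against Stfa2l1 and Cstdc4 against Csta2 are uncertain.

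The members differed in depth between the libraries. The files held 9855 DMSO barcodes with 106792967 UMIs and 11631 DAB barcodes with 165506902 UMIs. Members had a median of 4784 UMIs and 1539 genes in the DMSO library, below the 8348.5 UMIs of the other kept cells. In the DAB library they had 16955 UMIs and 3638.5 genes, above the 10234.5 UMIs of the others. More than 2 times their library's median was reached by 5 DMSO members (12.2%) and 221 DAB members (39.7%), against 23.4% and 24.0% of the other cells. A score against simulated doublets marked 2 DMSO and 32 DAB members, 4.88% and 5.76%. The share marked of all cells, 7.70% and 9.13%, was set beforehand by a rate of 0.8% per 1000 cells. Of the stefin-high cells with Car4, a comparison group below, the score marked 18.1% and 26.2%, and of stefin-low cells 1.44% and 2.62%. The members' median score was 0.44 in DMSO and 0.48 in DAB, above the 0.36 and 0.38 of the other cells. The part of depth and of doublets in the results was not tested beyond these values and the alternatives named below. The 5 deepest DMSO members held 43.3% of the UMIs of all 41. Of 152 barcodes found in both libraries, 2 were DMSO and 9 DAB members.

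Stefin A-high cells outside the other limits made up 0.426% of the DMSO cells (0.306 to 0.578) and 4.87% of the DAB cells (4.48 to 5.28). The share was 11.4-fold higher with DAB (8.32 to 16.1). All cells past the stefin limit, before the other limits were applied, numbered 302 (3.14%) and 1812 (15.9%), which was 5.06-fold. Most stefin-high cells were set aside because they held Car4, the membrane carbonic anhydrase, with 199 DMSO and 1064 DAB cells. The limit on the secondary granule genes Ltf and Ngp removed 95 and 236, some of them the same cells. Members were thus 13.6% of the stefin-high DMSO cells and 30.7% of those with DAB. Among the members 7 DMSO and 91 DAB cells had 1 Car4 UMI, just below the limit, and the others had none.

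Stefin levels within the members were spread over a wide range. The sum of Stfa1, Stfa2 and Stfa3 had a median of 32.9 UMIs per 10000 in the DMSO members (lowest 20.8, highest 142) and 41.2 in the DAB members (lowest 20.1, highest 269). Between 20 and 25 per 10000, just inside the limit, lay 7 DMSO and 93 DAB members, and 9 and 87 cells lay just outside it, between 15 and 20. Members are a range of a per-cell level, and whether they form a cluster over other genes was not tested. The level rested on a median of 18 stefin UMIs per DMSO member and 79 per DAB member, and 4 DAB members passed with fewer than 5. Members at 100 to 200 per 10000 were 3 DMSO cells (7.32% of the members) and 60 DAB cells (10.8%), and at 200 and over there were 0 and 5.

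**Figure D1:**
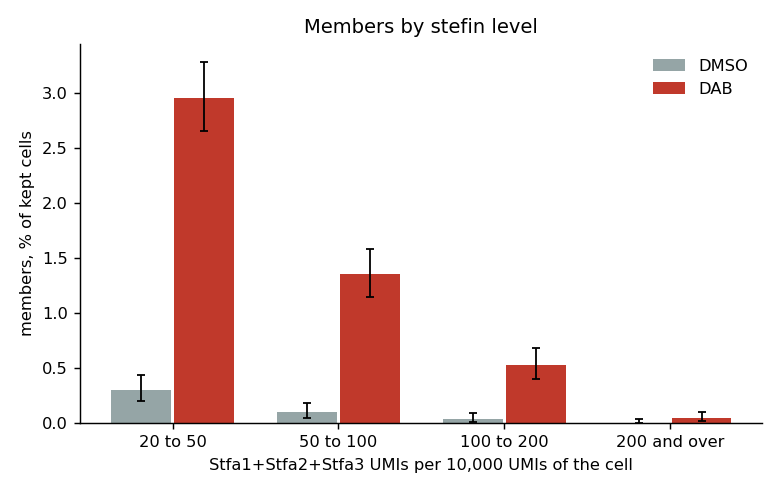
Members as a percentage of the kept cells of their library (vertical axis), by the UMIs of Stfa1, Stfa2 and Stfa3 per 10000 UMIs of the cell (horizontal axis), with grey bars for DMSO, red bars for DAB and error bars for exact 95% binomial intervals. The DAB share was 2.95% against 0.301% at 20 to 50 and 0.526% against 0.0312% at 100 to 200, and no DMSO member reached 200.

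The stefin genes that the rule did not use were abundant in the members as well. Cstdc5 stood at 3319 counts per 1000000 UMIs (CPM), summed over the DMSO members, and at 6127 CPM over the DAB members, against 71.8 and 557 CPM in stefin-low cells, which met every limit but that on stefins. Cstdc4 stood at 6047 and 8589 CPM against 1303 and 2856 CPM. Stfa2l1, at 2153 and 2300 CPM against 227 and 398 CPM, showed the same order, and so did Csta3, at 166 and 256 CPM against 12.7 and 53.9 CPM. The whole family took 1.68% of the DMSO and 2.51% of the DAB members' UMIs, and the 3 genes of the rule were 22.9% and 20.8% of that. A UMI marks a transcript end, so these shares do not depend on transcript length. In stefin-low cells the family took 0.206% and 0.520%. In B cells, which should hold no stefins and serve as a measure of free RNA, it took 0.0518% and 0.184% (88 and 170 cells, median 4881 and 5827.5 UMIs). In DAB 1 B cell met the member rule itself, and without it the share was 0.153%, of which Stfa1, Stfa2 and Stfa3 were 19.0%, against 0.593% in DMSO B cells. Csta1 had no UMI in any member and Cstdc6 stood at 8.90 and 8.59 CPM, so these genes of the cluster were at or near 0.

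**Figure D2:**
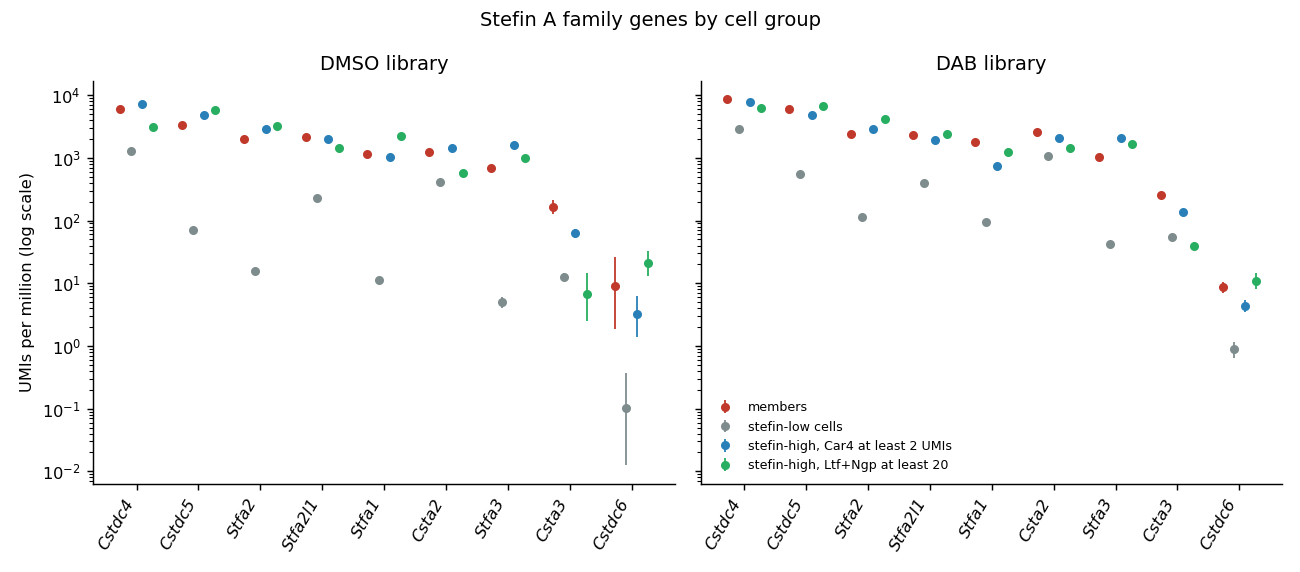
CPM on a log scale (vertical axis) for 9 stefin A family genes in the DMSO library (left) and the DAB library (right), summed over the cells of a group, with exact 95% Poisson intervals. Members lie above stefin-low cells for every gene, at 1151 against 11.2 for Stfa1 in DMSO. For Csta3 members also lie above the stefin-high cells with Car4 and with Ltf and Ngp, at 166 against 63.2 and 6.73 in DMSO. In DAB these levels were 256 against 135 and 39.6. For Stfa3 members lie below both, at 685 against 1619 and 1003 in DMSO and 1024 against 2095 and 1668 in DAB.

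Single members differed in which stefins they carried. Stfa1 had no UMI in 24 of 41 DMSO members (58.5%) and 223 of 556 DAB members (40.1%), yet reached 89 and 551 UMIs in single cells. Stfa2 was at 0 in 7 and 59 members and Stfa3 in 15 and 116. All 3 genes were seen together in 7 DMSO (17.1%) and 230 DAB members (41.4%), and only 1 of the 3 in 12 (29.3%) and 72 (12.9%). The DAB members were deeper, and the part of depth in these counts was not tested. Among stefin-high cells with Car4, Stfa1 was at 0 in 61.8% and 60.3% of cells and its level was 1025 and 749 CPM, while Stfa3 was at 1619 and 2095 CPM against 685 and 1024 CPM in the members.

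Beyond the stefins, S100 and secondary granule genes were the granulocyte lists with genes higher in the members than in the stefin-low cells. Of 6597 genes with at least 20 CPM in the members or the stefin-low cells, 20 (0.303%) were at least 2-fold higher in the members of both libraries and 38 (0.576%) at least 2-fold lower. S100a8 stood at 26713 CPM in DMSO and 25337 CPM in DAB members, against 6380 and 9119 CPM in stefin-low cells. S100a9 stood at 25129 and 25437 CPM against 6642 and 8492 CPM. The 8 S100 genes of the list together made up 58153 and 58562 CPM of the members, with no gene of it 2-fold apart between the libraries. Stefin-high cells with Car4 held as much or more of both lists, with 74237 and 67055 CPM of S100 genes and 16011 and 9228 CPM of secondary granule genes against 8334 and 8930 CPM in the members. Of 14 secondary granule genes 5 were at least 2-fold higher and 0 lower, while none of 8 primary granule genes, 17 tertiary granule and mature granulocyte genes or 9 granulocyte transcription factors was 2-fold apart in either direction in both libraries. Lcn2, a siderophore-binding protein of neutrophil granules, was at 1723 and 2547 CPM against 554 and 998 CPM. Chil3, a chitinase-like lectin, was at 4472 and 2633 CPM against 1864 and 929 CPM. Cd177, a neutrophil surface antigen, and Lrg1, a secreted glycoprotein of neutrophil granules, were also among the 20, at a smaller-library log2 ratio of 1.20 each. Members were drawn from the same libraries by their stefins, so these values describe them and were not tested.

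The stefin-high cells that the rule had set aside served to show which genes the members lacked beside Car4, Ltf and Ngp, levels that the rule fixed. Against stefin-high cells with Car4, 31 of 6355 genes (0.488%) were at least 2-fold higher in the members of both libraries and 22 (0.346%) at least 2-fold lower. Of 9 primary granule genes 3 were among the higher, with Prtn3, the gene of proteinase 3, at 887 CPM in DMSO and 187 CPM in DAB members against 168 and 85.3 CPM and Ms4a3 at 65.3 and 52.4 CPM against 27.8 and 25.6 CPM. The DMSO values rest on few cells, since a single one held 75.9% of the Prtn3 UMIs and 90.9% of the 22 Ms4a3 UMIs, and the 7 UMIs of the other gene, Prss57, were all in 1 cell. All 3 CXC chemokine ligands compared were among the lower, with Cxcl3 at 116 and 1192 CPM against 499 and 3093 CPM and Cxcl2 at 139 and 335 CPM against 291 and 781 CPM.

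The cells with Ltf and Ngp stood further from the members. There 266 of 6566 genes (4.05%) were at least 2-fold higher in the members of both libraries and 113 (1.72%) at least 2-fold lower. Ltf and Ngp belong to the secondary granule genes, which granulocytes express at the myelocyte stage, and their direction was fixed by the rule. Of the 13 other secondary granule genes compared, 10 were lower and 0 higher, and without Ltf and Ngp the list summed to 8224 and 8810 CPM in the members against 34569 and 21215 CPM. Camp stood at 29.7 and 4.80 CPM against 5669 and 809 CPM, and Cd177 at 80.1 and 236 CPM against 1352 and 1504 CPM. S100a8, at 78116 and 56505 CPM there, was also at least 2-fold lower in the members. Monocyte lineage genes were higher in 3 of 6 and macrophage genes in 3 of 6. Ccr2 stood at 119 and 31.8 CPM against 13.5 and 3.49 CPM, and Spp1 at 1272 and 3767 CPM against 362 and 1217 CPM.

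Genes of B cells, T and NK cells and erythroid cells were at or near 0 in the members, while some genes shared with macrophages and dendritic cells were not. The 12 macrophage genes summed to 2393 CPM in DMSO and 4534 CPM in DAB members, with Spp1, osteopontin, as the highest at 1272 and 3767 CPM, and 5 and 3 of the 12 had no UMI. The 13 dendritic and MHC class II genes summed to 2539 and 1601 CPM, with Cd74, the invariant chain, as the highest at 1833 and 1231 CPM. Stefin-low cells held 3463 and 3777 CPM of the macrophage list and 3017 and 3040 CPM of the dendritic list. The part of such cells in the results was not tested. Cd79a had no UMI in the DMSO members and 0.647 CPM in the DAB members, and the 9 B cell genes summed to 2.97 and 4.80 CPM, against 10311 and 7031 CPM in B cells. The C1q gene C1qb had no UMI in either library's members. Prss34 and Mcpt8, proteases of basophils, were at 0 in DMSO and at 0.462 and 1.29 CPM in DAB, where stefin-low cells held 293 and 188 CPM of Prss34. The basophil and mast cell list summed to 17.8 CPM in DMSO and 149 CPM in DAB members, with Hdc, the histamine-forming enzyme, as its highest gene at 11.9 and 83.4 CPM. The 10 T and NK cell genes summed to 5.93 and 2.59 CPM and the 9 erythroid genes to 8.90 and 13.2 CPM. Among the other genes lower in the members were Ccl17, a chemokine of dendritic cells, at 0 and 1.48 CPM against 254 and 23.3 CPM, and Crip1, at 23.7 and 69.5 CPM against 358 and 198 CPM.

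The part of the name that rests on Ly6c2 held for the DAB library better than for the DMSO library. Ly6c2 stood at 738 CPM in DMSO and 1223 CPM in DAB members, against 242 and 458 CPM in stefin-low cells. Yet only 18 of 41 DMSO members (43.9%) had any Ly6c2 UMI, where 454 of 556 DAB members (81.7%) did. After each cell had been thinned to 1500 UMIs, which left 40 DMSO and 549 DAB members, the shares were 27.5% (14.6 to 43.9) and 57.0% (52.8 to 61.2). The thinned shares were 14.2% and 24.3% in stefin-low cells and 4.60% and 4.17% in B cells, so both members' shares lay above those of B cells. Ly6c2 was not particular to the members, since stefin-high cells with Car4 held it in 40.7% (33.8 to 47.9) and 48.8% (45.8 to 51.9) and those with Ltf and Ngp in 78.4% (68.4 to 86.5) and 88.9% (84.2 to 92.6). The cells are therefore called stefin A-high cells here. DAB members with a Ly6c2 UMI after thinning held Cd177 in 33.2% of 313 cells (28.0 to 38.7) and Ly6g in 10.2% (7.10 to 14.1). DAB members without it held them in 9.75% of 236 cells (6.28 to 14.3) and 2.54% (0.939 to 5.45). Lcn2 followed the same order, at 88.2% and 64.0%, and Csf3r, the G-CSF receptor, the opposite, at 2.56% and 8.47%. In DMSO, with 11 and 29 cells, Lcn2 stood at 45.5% (16.7 to 76.6) and 75.9% (56.5 to 89.7), the reverse order, and Cd177 at 18.2% (2.28 to 51.8) and 6.90% (0.846 to 22.8), all with overlapping intervals.

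At equal depth most members held the alarmin genes, and fewer held Ly6g, Camp, Csf3r or the monocyte gene Csf1r. S100a8 was detected in 95% of the DMSO members and 91.4% of the DAB members, against 22.99% and 38.7% of B cells. Without thinning these shares were 97.6% and 98.6% of the members. Itgam, which encodes CD11b, was in 52.5% and 59.4% of members and 4.60% and 6.55% of B cells. Ly6g was in 17.5% of DMSO members (7.34 to 32.8) and 6.92% of DAB members (4.94 to 9.38), and Camp, a secondary granule peptide, in 2.50% and 0.911%. Csf1r, the receptor that marks monocytes, was in 22.5% (10.8 to 38.5) and 15.1% (12.2 to 18.4), close to the 20.3% and 15.05% of stefin-low cells. Csf3r was in 32.5% (18.6 to 49.1) of DMSO and 5.10% (3.42 to 7.29) of DAB members. Irf8 and Cx3cr1, genes of the monocyte and dendritic lineage, had a UMI in 0 of 40 thinned DMSO members. That count allows up to 3 cells of 40, or 7.50%, with a UMI at this depth and sets no limit on cells that express the genes. Without thinning Cx3cr1 was in 7.32% and Irf8 in none of the DMSO members. Of DAB members 1.82% held Irf8 and 0.182% Cx3cr1 after thinning.

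**Figure D3:**
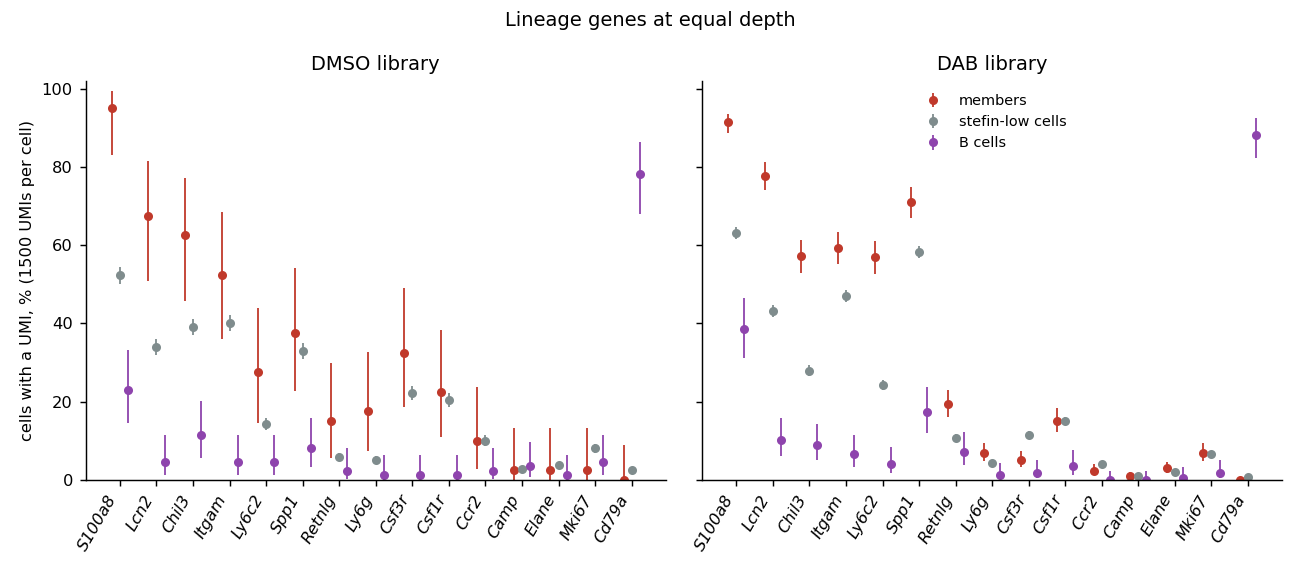
Percentage of cells with at least 1 UMI of a lineage gene after thinning to 1500 UMIs per cell (vertical axis), in members, stefin-low cells and B cells of the DMSO library (left) and the DAB library (right), with exact 95% binomial intervals. S100a8 and Lcn2 stand above both other groups in both libraries, Csf3r was seen in 32.5% of DMSO against 5.10% of DAB members, and the intervals of the 40 DMSO members are wide.

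Cycling cells, taken as those with at least 3 UMIs of 26 proliferation genes after thinning, were 2 of 40 DMSO members (5.00%, 0.611 to 16.9) and 94 of 549 DAB members (17.1%, 14.1 to 20.5). Stefin-low cells had 13.02% and 12.3%, and stefin-high cells with Car4 had 14.6% and 6.96%. Unthinned, the members' shares were 19.5% and 48.6%. Stefin-high cells with Ltf and Ngp had 30.7% (21.3 to 41.4) and 22.1% (17.0 to 28.0), and the DMSO value lay above the interval of the members there. The interval of the 40 DMSO members spans the values of the stefin-low cells and the cells with Car4, and no difference from these was detectable at this depth. B cells, which can cycle themselves and so give no measure of free RNA here, had 11.5% of 87 cells and 3.57% of 168 cells. Free RNA of these genes was not measured. Mki67, the standard proliferation antigen, stood at 113 CPM in DMSO and 107 CPM in DAB members, but 71.0% of its DMSO UMIs came from a single cell of only 3 that held any, against 158 DAB members with a UMI.

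Within the DAB members, most proliferation genes and a minority of the genes of mature granulocytes differed along the level of stefins, in opposite directions. Members at 100 and over per 10000 (65 cells) were set beside those at 20 to 50 (337 cells), and of 5664 genes compared 59 (1.04%) were at least 2-fold higher and 303 (5.35%) at least 2-fold lower at the high level. Of 17 tertiary granule and mature granulocyte genes 4 were higher and 0 lower, of 13 secondary granule genes 3 and 0 (1 of them Ngp, whose level the rule limits), and of 8 S100 genes 2 and 0. Of 6 primary granule genes 0 were higher and 3 lower. Retnlg, a resistin-like protein of mature neutrophils, was at 508 CPM at 20 to 50, 822 CPM at 50 to 100 and 1725 CPM at 100 and over. Cd177 stood at 167, 287 and 550 CPM over the same bins, and Elane, neutrophil elastase, at 60.8, 80.3 and 7.39 CPM. Cxcr2, the receptor for neutrophil chemokines, stood at 86.3, 115 and 208 CPM, and Ly6c2 less steeply at 1086, 1369 and 1689 CPM. Of 25 proliferation genes 0 were higher and 23 lower, with a summed level for the list of 1666, 1152 and 412 CPM. Its members Ube2c, at 225, 166 and 27.4 CPM, and Top2a, at 145, 95.9 and 31.7 CPM, followed that order. Median depth was lower at the high level, with 10396 UMIs at 100 to 200 against 18469 at 20 to 50. Stefin genes are part of the total that scales each CPM, and of the members in DMSO only 3 lay above 100.

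A second axis was the share of Stfa1 among the 3 genes of the rule, which was chosen for description after the values had been seen, as were the genes named for it. Stfa1 gave at least 50% of the 3 genes' UMIs in 9 DMSO and 160 DAB members, and none in 24 and 223. Cells with 40 to 60%, near that limit, numbered 0 and 46. Of 5822 genes compared in the DAB members, 341 (5.86%) were at least 2-fold higher in the Stfa1 cells and 178 (3.06%) at least 2-fold lower. Of the 341, 92 were also 2-fold higher in the DMSO members and 35 were 2-fold lower there. In stefin-high DAB cells with Car4, which the rule had set aside, 172 of the 341 were also higher and 0 lower, and 54 of the 178 also lower and 1 higher. The share of all 5822 genes past 2-fold in the DMSO members or in the cells with Car4 was not counted. These overlaps therefore have no background beside them and only describe the genes. Stfa1 cells were deeper, with a median of 24637.5 UMIs against 11312 in the DAB library and 10100 against 3299.5 in the DMSO library.

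Primary granule genes, which precursors of granulocytes express first, were higher in the Stfa1 cells of the DAB library for 5 of the 7 compared, with 0 lower. Prtn3 stood at 404 CPM in the DAB cells with Stfa1 and 40.8 CPM in those without, a log2 ratio of 3.30 (3.04 to 3.58), and at 1935 and 117 CPM in DMSO. Elane stood at 161 against 3.95 CPM and Ctsg, cathepsin G, at 91.5 against 0.988 CPM in DAB. In the DMSO members a single cell held 99.1% of the Elane UMIs, and a single cell 75.9% of the Prtn3 UMIs. After thinning, Prtn3 had a UMI in 4 of 9 DMSO cells with Stfa1 (44.4%, 13.7 to 78.8) and 3 of 23 without (13.04%, 2.78 to 33.6), and Elane, Ctsg and Ms4a3 in 1 of the 9 each. Ms4a3, a membrane protein of granulocyte and monocyte precursors, stood at 104 against 12.5 CPM in DAB. Of 26 proliferation genes, 23 were at least 2-fold higher in the DAB cells with Stfa1, with a summed level of 2019 against 769 CPM, and cycling cells were 33.1% (25.9 to 41.0) against 6.45% (3.57 to 10.6) after thinning. In the DMSO members the summed levels were in the reverse order, at 964 and 1351 CPM over 9 and 24 cells, while cycling cells were 1 of 9 (11.1%, 0.281 to 48.2) and 1 of 23 (4.35%, 0.110 to 21.9) after thinning, too few to give an order. Thy1, the surface antigen CD90, was in 28.1% (21.3 to 35.8) of the DAB cells with Stfa1 and 3.69% (1.60 to 7.13) of those without.

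Many genes of mature granulocytes were lower in the Stfa1 cells, and Csf3r was not, with a log2 ratio of -0.36 (-0.86 to 0.14) in DAB. Of 18 tertiary granule and mature granulocyte genes, 10 were at least 2-fold lower and 0 higher in DAB, with a summed level of 2530 against 7171 CPM, and the sum was 2691 against 9338 CPM in DMSO. Mmp8, neutrophil collagenase, stood at 223 against 1115 CPM in DAB and 237 against 1280 CPM in DMSO. Mmp9, gelatinase B, stood at 77.1 against 378 CPM in DAB and 37.1 against 734 CPM in DMSO. Wfdc21 and Retnlg had log2 ratios of -2.76 and -4.43 in DAB and of -4.18 and -5.53 in DMSO, so both libraries gave this order. Thinned shares in DAB had the same order for Mmp8 and Retnlg, with Mmp8 in 25.6% (19.1 to 33.1) against 68.7% (62.0 to 74.8) and Retnlg in 3.75% (1.39 to 7.98) against 29.0% (23.1 to 35.6). For Ly6g, at 5.63% (2.60 to 10.4) against 10.1% (6.46 to 14.9), the intervals overlapped, as they did for Csf3r in the reverse order, at 9.38% (5.34 to 14.99) against 6.45% (3.57 to 10.6). The CC chemokine Ccl6 stood at 3022 against 10386 CPM. Stfa2 and Stfa3 were lower in cells with Stfa1, but the 3 share the sum that sets the range. Cstdc4 and Cstdc5 had log2 ratios of -0.08 and 0.14 in DAB, and Ly6c2 had -0.47 in DAB and 1.32 in DMSO.

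**Figure D4:**
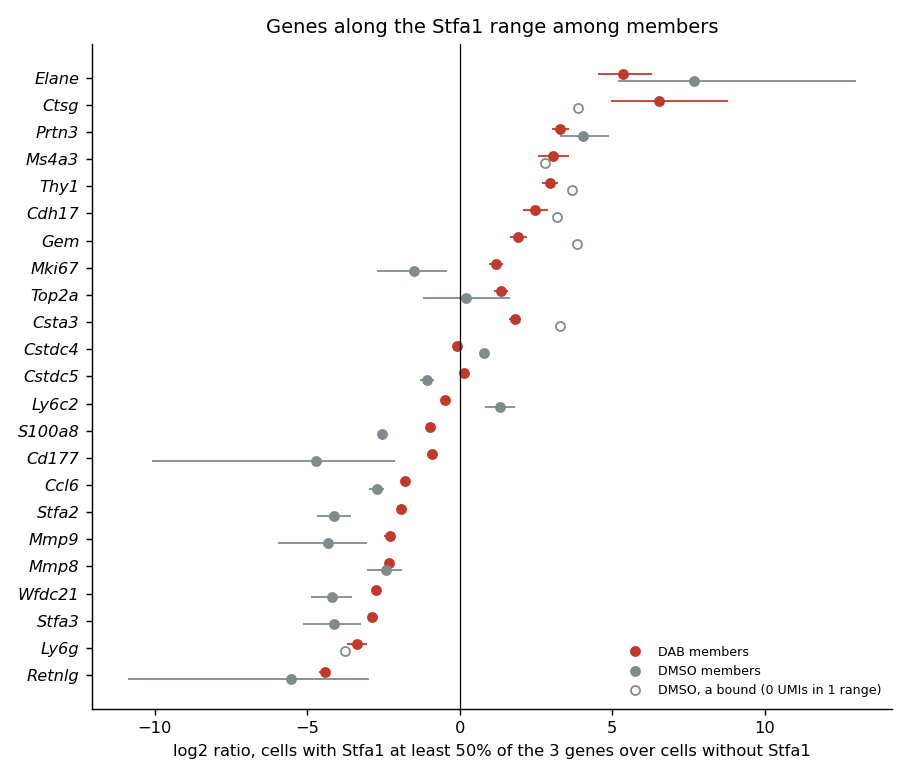
Log2 ratio of summed CPM (horizontal axis) between members with at least 50% Stfa1 among the 3 genes and members without Stfa1, for genes chosen after their values were seen (vertical axis), in DAB (red) and DMSO (grey), with exact 95% intervals where they are wider than the point. Open circles are bounds where a range of the DMSO library had 0 UMIs, set at a floor of 3 UMIs over the group. Primary granule genes lie to the right in DAB, and in DMSO too, where 1 cell held 99.1% of the Elane and 75.9% of the Prtn3 UMIs, and the mature granulocyte genes shown lie to the left in both, while Mki67 and Ly6c2 have opposite signs.

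Between the libraries, 448 of 6173 genes with at least 20 CPM (7.26%) were at least 2-fold higher in the DAB than in the DMSO members and 621 (10.1%) at least 2-fold lower. With the interval also on that side of 0, the counts were 308 (4.99%) and 551 (8.93%). The median log2 ratio over all genes was -0.09. At 20 CPM a gene had about 6.74 UMIs over the DMSO members and 216 over the DAB members, so the DMSO library set the error. Because few cells held much of the DMSO sum, each ratio was also taken as a mean over cells, and among members with at most 2 times their library's median UMIs, the latter chosen after seeing the data. All 3 ways gave 237 genes higher and 351 lower, 52.9% and 56.5% of the first counts. They were 3.84% and 5.69% of all genes compared.

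Amino acid response genes, the targets of ATF4 that restore amino acid supply, were the list with the most genes higher in DAB members. Of 33 compared, 21 were at least 2-fold higher and 0 lower, beside 7.26% and 10.1% of all genes. The list's median log2 ratio was 1.43, beside -0.09 over all genes and 1.07 for the same list in stefin-low cells. Asns, asparagine synthetase, was at 23.7 CPM in DMSO members, where 5 cells held a UMI, and at 163 CPM in DAB members, where 368 did, a log2 ratio of 2.78 (1.80 to 4.00). Trib3, a pseudokinase that restrains ATF4, was at 5.93 and 96.2 CPM (4.02, 2.16 to 7.07) and Atf5, a related factor, at 11.9 and 138 CPM (3.54, 2.18 to 5.42). The list's highest genes with a ratio past 2-fold were the amino acid transporter subunit Slc3a2, at 107 and 287 CPM, and Mthfd2, a mitochondrial folate enzyme, at 86.0 and 195 CPM. The proline enzyme Aldh18a1 had 1 UMI in DMSO and 43.1 CPM in DAB. Stc2, a secreted stress protein, had no UMI in DMSO and was at least 7.55-fold higher in DAB, at 67.2 CPM. Ddit4, an mTOR inhibitor of the same list, stood at 208 and 123 CPM, a log2 ratio of -0.75. By all 3 ways 15 of the 33 were higher and 0 lower, beside 3.84% and 5.69% of all genes. Of 21 unfolded protein response genes 1, Selenos, was 2-fold higher, beside 7.26% of all genes, and the list's median was 0.45.

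All 3 CXC chemokine ligands compared were at least 2-fold higher in the DAB members, and of 6 CC chemokine ligands 3 were higher and 1 lower. Over all genes 7.26% were higher and 10.1% lower. The 7 genes of the CXC list summed to 261 CPM in DMSO and 1586 CPM in DAB members. In B cells, the measure of free RNA, they summed to 50.7 and 1115 CPM, higher with DAB too. In DAB 1 of these B cells met the member rule, and doublets were not removed from the B cells. The part of free RNA in the members' levels was not tested. Cxcl3, a ligand of CXCR2, stood at 116 CPM in DMSO and 1192 CPM in DAB members (3.37, 2.91 to 3.86), and Cxcl2 at 139 and 335 CPM. A Cxcl3 UMI was found in 10 DMSO and 374 DAB members. Such counts of cells with a UMI can include free RNA and are no counts of expressing cells. The log2 ratio of Cxcl2 was 1.27 in the members. In stefin-low cells the log2 ratios of Cxcl3 and Cxcl2 were 3.03 and 2.33. Ccl4 had 1 UMI in the DMSO members and 200 CPM in the DAB members, where 134 cells held it. Of 14 targets of NF-kB, 5 were higher and 2 lower, beside the 7.26% and 10.1% of all genes, with a median of 0.04. The 5 were higher by all 3 ways, beside 3.84% of all genes, among them Icam1 and the survival genes Bcl2a1b and Bcl2a1d. Il1b, interleukin 1 beta, was lower at 59.3 and 17.7 CPM. Outside these lists, Spp1 stood at 1272 and 3767 CPM (1.57, 1.43 to 1.71) and Fn1, fibronectin, at 89.0 and 277 CPM. Retnla, another resistin-like protein, had no UMI in DMSO members and 1022 CPM in DAB members, at least 115-fold, with a UMI in 129 cells. After thinning it had a UMI in 9.11% of DAB members (6.84 to 11.8) and 7.74% of DAB B cells (4.18 to 12.9). These intervals overlapped, so by the share of cells with a UMI alone the members did not stand apart from free RNA. The level of Retnla was uneven within the DAB members. After thinning, 499 of 549 held no Retnla UMI, and the highest count in a single cell was 112. Summed levels were 1176 CPM in the DAB members without Stfa1 and 16.4 CPM in the Stfa1 cells. The part of free RNA in the Retnla level was not tested.

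Further genes with a higher level in the DAB members came from several lists. Ccnd2, cyclin D2, stood at 83.0 and 285 CPM (1.78, 1.24 to 2.37), Cd177 at 80.1 and 236 CPM (1.56, 1.01 to 2.16), and Cebpe, a factor of granule formation, at 38.6 and 110.5 CPM (1.52, 0.74 to 2.43). Ifitm6, an interferon-inducible transmembrane protein, stood at 71.2 and 470 CPM (2.72, 2.15 to 3.37). These 4 were higher by all 3 ways. Cd177 and Cebpe were lower with DAB once the limit on Ltf and Ngp was left out, at log2 ratios of -0.77 and -0.84. Of 26 proliferation genes 9 were at least 2-fold higher and 1 lower, beside 7.26% and 10.1% of all genes, and the median was 0.49. Only Cenpa and Ube2c were higher by all 3 ways, beside 3.84% of all genes, and Ube2c turned to -0.27 without the limit on Ltf and Ngp. The stefin list had a median of 0.39 with no gene called among 9. In that list the rule had set the levels of Stfa1, Stfa2 and Stfa3. Csta2, a family gene outside the list and the rule, stood at 1260 and 2617 CPM, a log2 ratio of 1.05. This ratio was 0.95 as a mean over cells and 0.996 among members with at most 2 times the median UMIs, both under 2-fold.

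Genes lower in the DAB members included some suppressive enzymes of MDSC. Of 13 suppressive enzymes and ligands 5 were at least 2-fold lower and 0 higher, beside 10.1% and 7.26% of all genes. Nos2 and Cd244a were among those lower by all 3 ways. Nos2, inducible nitric oxide synthase, stood at 74.1 and 8.22 CPM (-3.17, -3.83 to -2.47), beside -3.51 in stefin-low cells. Of 9 chemoattractant receptors 5 were lower and 0 higher, beside the same 10.1% and 7.26%. Ccr2, the receptor of monocyte recruitment, stood at 119 and 31.8 CPM (-1.90, -2.38 to -1.39). Like Ccr2, Cxcr4 and Fpr2 were lower by all 3 ways. Csf3r stood at 104 and 16.9 CPM (-2.62, -3.15 to -2.05), the same direction as its thinned shares.

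Single genes of other lists, or of none, also had lower levels in the DAB members. Trf, transferrin, stood at 1293 and 187 CPM (-2.79, -2.94 to -2.64), Lrg1 at 243 and 35.2 CPM, and Hp, haptoglobin, at 217 and 59.5 CPM. Of 13 AP-1 and immediate early genes 2 were 2-fold lower and 0 higher, beside 10.1% lower over all genes, Fos at 56.35 and 4.62 CPM (-3.61, -4.40 to -2.76) and the mRNA decay factor Zfp36 at 175 and 56.8 CPM (-1.62, -2.01 to -1.21). The list's median was -0.81. Mgl2, a lectin of macrophages and dendritic cells, stood at 999 CPM in only 8 DMSO members and 185 CPM in 176 DAB members.

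Some of the largest ratios rested on single DMSO cells. All 136 Mpo UMIs of the DMSO members were in 1 cell, as were 99.1% of those of Elane and 84.6% of those of Ccl24. Their log2 ratios of -8.28, -3.40 and -6.75 are those of that cell, and none of the 3 was lower among members with at most 2 times the median UMIs. The primary granule list, with 4 of 8 genes lower, beside 10.1% of all genes, and a median of -1.46, stood at 0.58 in that comparison.

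**Figure D5:**
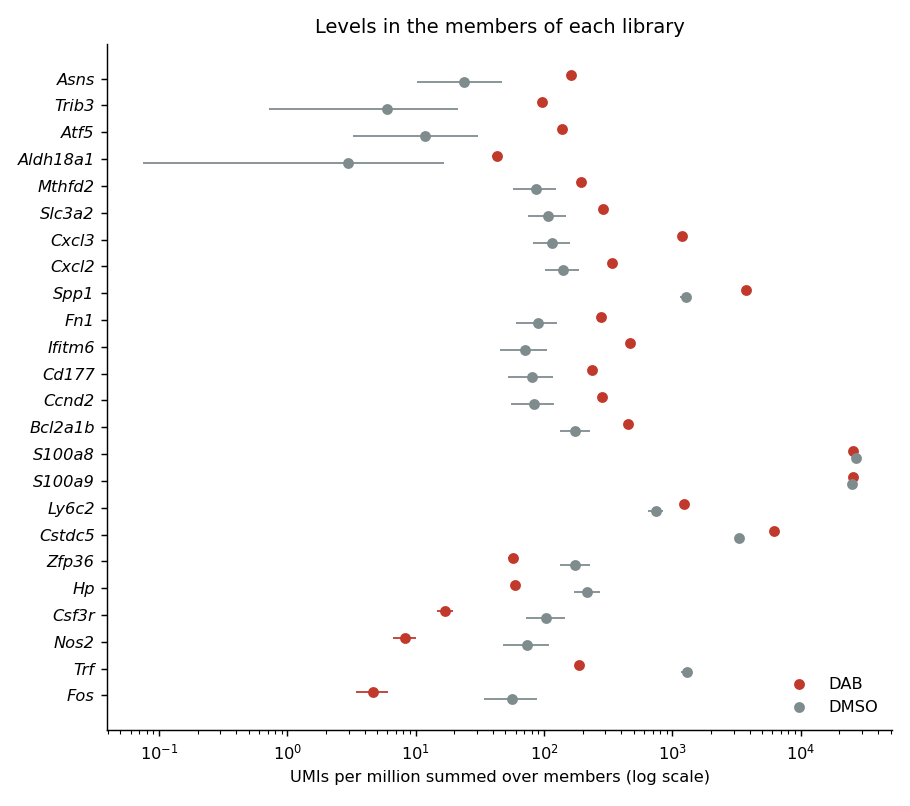
CPM summed over members on a log scale (horizontal axis) for 24 genes (vertical axis) in DAB (red) and DMSO (grey), with exact 95% Poisson intervals where wider than the point. Asns, Trib3 and Cxcl3 lie higher in DAB, S100a8 and S100a9 lie close together, and Nos2, Trf and Fos lie lower.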

How the data were processed

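The deposited values are raw UMI counts per gene and barcode, which the authors made with Cell Ranger 7.0.0 on mm10 from 1 library per group of 10x Genomics 5′ v2 cells, and they include barcodes before the authors' cell filters. Per the submitters' processing notes Seurat 4.3.0 was used downstream, and its objects were not used here. Of 32285 genes, UMIs were summed over the cells of a group, without counts added, and divided by the group's total to give counts per 1000000 UMIs (CPM). Levels carry exact Poisson, ratios exact conditional binomial and shares Clopper-Pearson intervals at 95%. A zero was replaced by a floor of 3 UMIs per group for bounds. Genes counted as higher or lower at 2-fold among those with at least 20 CPM on either side, with no test because there was 1 library per group. B cells had at least 2 UMIs each of Cd79a and Cd79b. Thinning to 1500 UMIs used seed 1. Doublets were scored with 50 neighbours among 30 components of 2000 genes.

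Named genes were those of the rule, the 15 with the largest ratio in each direction between libraries and against stefin-low cells among those with at least 50 CPM, and up to 4 of the highest and 2 of the most changed of each of 43 lists. Others, such as Ms4a3, Thy1, Itgam or Irf8, and genes named from counts of a list, were chosen after their values were seen. The members and lists were chosen with earlier results of these data known. Csta1, Csta2 and Csta3 were added to the stefin A family after the files were seen, and the ratios of the stefin list leave Csta2 out. Coding sequences came from GENCODE vM21. The ratio method was tested on simulated Poisson counts of whole groups. These held no differences between cells, so that test does not cover levels held by few cells. Python 3.11.15, numpy 2.4.6, scipy 1.17.1, pandas 2.3.3 and matplotlib 3.10.9 were used. Some genes that the rule names are not reported here.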

Additional observations from a re-analysis of the deposited data

How the results depend on the processing

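No paired analysis was possible because each group was 1 library. The log2 ratio of the members' share was 3.51 as reported, and 4.02, 4.19, 2.58 and 2.68 with a stefin limit of 40 or 100 per 10000, without the limit on Ltf and Ngp, and without those on Car4, Mmp13 and MHC class II. It was 4.41 for members with a Ly6c2 UMI and 2.97 for those with at most 2 times the median UMIs, both chosen after seeing the data. The counts of 448 genes higher and 621 lower with DAB became 715 and 1552 at a stefin limit of 40, 215 and 1823 at 100, and 132 and 158 without the Car4, Mmp13 and MHC limits. They became 756 and 955 as means over cells, 954 and 1317 from 5 CPM, 68 and 117 from 100 CPM, 962 and 1424 at 1.5-fold and 138 and 203 at 3-fold. The higher genes were 220 when the rule was applied after thinning and 675 among members with at most 2 times the median UMIs.

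The counts of 20 genes higher and 38 lower than in stefin-low cells became 55 and 114 at 1.5-fold, 8 and 17 at 3-fold, 63 and 15 at a stefin limit of 100, and 77 and 167 with at most 2 times the median UMIs. The higher genes were 34 at a stefin limit of 40 and 32 without the limit on Ltf and Ngp. The lower genes were 73 without the Car4, Mmp13 and MHC limits, 91 as means over cells, 11 from 100 CPM and 61 with stefin-low cells weighted to the members' depth. The amino acid list's median of 1.43 became 0 at a stefin limit of 100, which left 3 DMSO cells.

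Sign changes are given for log2 ratios that were at least 2-fold as reported. At a stefin limit of 40 they were those of Fabp5 (0.29), Tnfrsf9 (1.33), Mmp12 (1.97), Elane (2.82) and Ly6a (0.90). The primary granule list was then at 0.19 and the MHC class II list at 0.37. At 100 they were Bid (-1.02) and Cd177 (-0.55). Without the limit on Ltf and Ngp, Cenpf (-1.19), Ube2c (-0.27), Cd177 (-0.77) and Cebpe (-0.84) changed sign. Without the Car4, Mmp13 and MHC limits, Cenpf (-0.18), Ccl9 (-0.081) and Crip1 (-1.04) did, and after thinning Cenpf (-0.44), Ube2c (-0.50), Crip1 (-0.10) and H2-Ab1 (0.011). With limits on Car4 and Mmp13 per 10000 UMIs, chosen after seeing the data, Car4 was at 0.80. Among members with at most 2 times the median UMIs, Mmp12 was at 2.56, Elane at 1.36, and the primary granule and MHC class II lists at 0.58 and 0.22. As a mean over cells Mmp12 was at 0.40. The cause of these changes was not tested.

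Of the values for named genes and lists, 4019 stayed within 1.5 times the reported ratio and 611 moved further. Another 26, whose reported ratio was at least 2-fold, changed sign. Sign changes of smaller ratios were not counted apart. Doublet removal, leaving out barcodes found in both libraries, a floor of 3000 UMIs, no cell filter, and scaling by the median of ratios kept all counts within 1.5 times. The 41 DMSO members and their 337180 UMIs limit every ratio.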

Other observations

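Of the lists of energy metabolism genes, few genes were 2-fold apart between the members of the libraries. Of 26 nuclear oxidative phosphorylation genes, Uqcrq, a subunit of complex III, at 323 and 651 CPM, and Cox6a2, a tissue form of a complex IV subunit, with no UMI in DMSO and 113 CPM in 256 DAB members, were at least 2-fold higher, and the median log2 ratio was 0.10. Of 19 glycolysis and lactate genes none was 2-fold apart in either direction, but only 4 had a log2 ratio above 0, and the list summed to 20843 CPM in DMSO and 15872 CPM in DAB members. Gapdh stood at 3743 and 1964 CPM (-0.93, -1.01 to -0.85), and at -1.13 as a mean over cells and -1.07 among members with at most 2 times the median UMIs, past 2-fold, and Aldoa, an aldolase, at 4561 and 2889 CPM. Ldha, which makes lactate, stood at 1907 and 1876 CPM. Of 13 mitochondrially encoded genes mt-Atp8, at 119 and 253 CPM, was called higher, and none lower. Over all genes 7.26% were higher and 10.1% lower, so the shares called in these lists were near or below the background.

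The MHC class I list had 10 genes compared and none 2-fold apart, with B2m at 931 and 617 CPM. Its summed level was 3144 and 2537 CPM in members against 3805 and 3293 CPM in stefin-low cells. The 6 NADPH oxidase genes, which arm the respiratory burst, had none called either, with Cyba at 1510 and 2025 CPM. Of 7 cysteine cathepsins, the proteases that stefins inhibit, Ctsh alone was called lower with DAB, beside 10.1% of all genes, at 133 and 63.0 CPM, and the list summed to 1599 and 1483 CPM in the members, against 2114 and 1711 CPM in stefin-low cells. Against stefin-low cells, 1 of the 7 was 2-fold lower in both libraries and 0 higher, beside 0.576% and 0.303% of all genes, and a single gene is no result about the list.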
